A study of Mus musculus with 6 samples.

Results

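The Ube2 genes encode the E2 enzymes, which conjugate ubiquitin and its relatives to proteins. Members were taken as every gene of the deposited expression table whose symbol begins with Ube2, with the row of the highest mean kept where a symbol was listed more than once, and 36 of 25899 genes met this rule. The libraries come from oocytes of aged female (AF) CD1 mice, 58 weeks old per the labels, while the study's methods give another strain name and state the age differently. Females received 5 IU of pregnant mare serum gonadotropin, and oocytes were collected 46 h later at the germinal vesicle stage in medium with IBMX, which holds them in meiotic arrest. Denuded oocytes were cultured without IBMX for 180 minutes, treated with cycloheximide at 0.1 mg/ml, which stalls ribosomes on mRNA, and frozen in pools of 200 after nuclear envelope breakdown (NEBD). Each lysate was separated on a sucrose gradient, and RNA of the non-polysomal (NP) and polysomal (P) fractions was depleted of rRNA, amplified and sequenced, giving 3 NP and 3 P libraries. Both groups share age, strain, stage and drug and differ by design only in the part of the gradient. No young oocytes were analysed here, so the values describe AF oocytes and not ageing. The study describes NP as holding free RNA and RNA on monosomes, so NP is not free of ribosome-bound mRNA. The question is how the mRNA of each E2 was divided between the fractions with and without polysomes.

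Ubiquitin is attached to proteins through a relay in which an E1 enzyme activates it, an E2 carries it as a thioester on a cysteine, and an E3 ligase brings the loaded E2 to the substrate. The E2 often sets which lysine of ubiquitin is used for a chain, and some E2s carry NEDD8 or ISG15 in place of ubiquitin. In oocytes, the anaphase promoting complex (APC/C), an E3 that marks cyclin B and securin for destruction, works with Ube2c, which starts chains, and Ube2s, which lengthens them through lysine 11. Transcription is silent in the fully grown oocyte, so the proteins made after NEBD come from stored mRNAs that are loaded onto polysomes or held off them.

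The active site shows what the members share beyond their name. In most E2s it holds histidine, proline and asparagine followed, after 7 further residues, by the cysteine that carries ubiquitin. These residues were searched in frame in the coding sequence of GENCODE M21, genome build GRCm38, as CAC or CAT, then CCN, then AAC or AAT, then 7 codons, then TGC or TGT. Of 35 members with a coding transcript, 18 (51.4%) carried this arrangement, against 70 of 21754 coding genes (0.322%). The sequences below are those of the partner enzymes that the results turn on, each 33 bases long and read 5′ to 3′ on the strand of the gene, with the histidine, proline, asparagine and cysteine codons in capitals.
Ube2c: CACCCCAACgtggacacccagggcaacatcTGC
Ube2s: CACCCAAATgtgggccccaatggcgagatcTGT
Ube2a: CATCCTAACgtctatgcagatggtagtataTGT
Ube2b: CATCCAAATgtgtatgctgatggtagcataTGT
Ube2n: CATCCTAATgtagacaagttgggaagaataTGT
Ube2d3: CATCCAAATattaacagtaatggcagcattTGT
Ube2g2: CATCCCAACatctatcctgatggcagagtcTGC
Ube2m: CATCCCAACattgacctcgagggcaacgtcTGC
Ube2t: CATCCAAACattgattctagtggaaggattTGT

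The Ube2c stretch lies in a coding exon at chr2:164771947-164771979 on the plus strand, with the cysteine at codon 114 of transcript Ube2c-202. The Ube2s stretch lies in a coding exon at chr7:4810479-4810511 on the minus strand, with the cysteine at codon 95. In Ube2a (chrX:36881737-36882621, plus strand) and Ube2b (chr11:51988678-51991403, minus strand) an intron interrupts the stretch, and the cysteine is codon 88 in both. Across their coding sequences, Ube2a and Ube2b were identical at 77.6% of aligned bases and Ube2c and Ube2s at 61.7%. The arrangement was not found in Ube2v1 and Ube2v2, known as E2 variants without the active cysteine, nor in Ube2w, Ube2j1, Ube2j2, Ube2q1, Ube2q2, Ube2ql1, Ube2z, Ube2o and the 3 Ube2e genes. Ube2u, Ube2k and Ube2h carried the histidine, proline and asparagine codons without a cysteine codon at that distance. Ube2cbp also lacked the arrangement, and it is an older symbol of a HECT-like E3 ligase, so that the rule takes in a gene that is not an E2.

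Values are FPKM, reads scaled by exon length and by the mapped reads of the library, as deposited. Read depths recovered from the steps between low FPKM values were 1236871, 18087666 and 12124828 for the NP libraries and 163782, 1141108 and 1547793 for the P libraries, in the order of their replicate numbers. P replicate 1 was thus the shallowest, and there a gene of 2 kb at 0 may still have a level of up to 9.16 FPKM, which is what 3 reads would give and covers counting error only. Summed over all genes, FPKM came to between 597277 and 633211 in NP and between 246215 and 393926 in P, and most genes had lower values in P, so a lower value cannot be told apart from that general shift without the median of all genes beside it. All 12 oocyte markers listed were detected, whereas 7 of 12 granulosa or cumulus markers, among them Foxl2, Fshr and Amh, and 8 of 8 blood markers were at 0 in every library. The summed granulosa list was between 11.2 and 131 FPKM in NP and between 1.54 and 16.5 in P, most of it Cyp19a1 and Nr5a2, and its part in the results was not tested. No source says that the replicates came from separate groups of animals, so the p-values measure only the spread between these libraries.

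Ube2 mRNAs formed a small portion of the oocyte transcriptome, with a few abundant members carrying most of it. Their summed FPKM was between 0.176% and 0.283% of all FPKM in the NP libraries and between 0.230% and 0.242% in the P libraries. In such pools, fewer oocytes with an mRNA on polysomes and less of it per oocyte cannot be told apart. Ube2d3 alone, a broadly acting E2 of the UbcH5 group, made up between 18.1% and 25.5% of the family sum in every library. Ube2s took 6.31–11.9% of the family sum in NP and 12.7–20.7% in P, without overlap, and Ube2c took 4.28–11.6% in NP and 0.442–1.81% in P, again without overlap. These shares come from the same values as the ratios given further on. The remaining leading members varied between replicates. Ube2m was first in NP replicate 3 with 22.1% of the family sum, and Ube2g2 was first in P replicate 1 with 30.1%, while Ube2m took 1.46–6.33% and Ube2g2 1.91–20.3% of the sum in the other libraries.

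**Figure D1:**
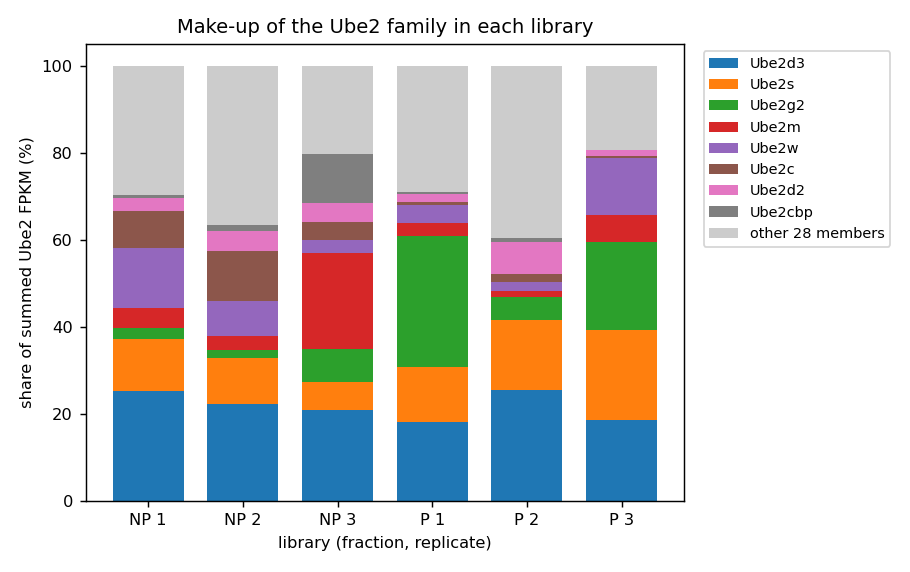
Share of the summed Ube2 FPKM, in percent, taken by the 8 most abundant members and by the other 28 in each of the 6 libraries. The Ube2d3 block is of like height throughout, between 18.1% and 25.5%, whereas the Ube2c block is at least 4.28% of every NP bar and at most 1.81% of every P bar.

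Of the 36 members, 18 were above 0 in all 6 libraries and 28 passed the filter of a mean above 1 FPKM in NP or P, 5 of them through NP alone (Ube2v1, Ube2j2, Ube2r2, Ube2u and Ube2q2). A member that passed only through NP had to be lower in P, so counts over those tested do not speak for all 36. The median over tested members was 21.9 FPKM for the NP mean and 10.9 FPKM for the P mean, against 10.2 and 4.63 FPKM over the 10578 genes tested. Replicates differed widely, with a median ratio of the highest to the lowest replicate of 3.22 in NP over 28 members and of 3.79 in P over the 18 members above 0 in all P libraries.

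**Figure D2:**
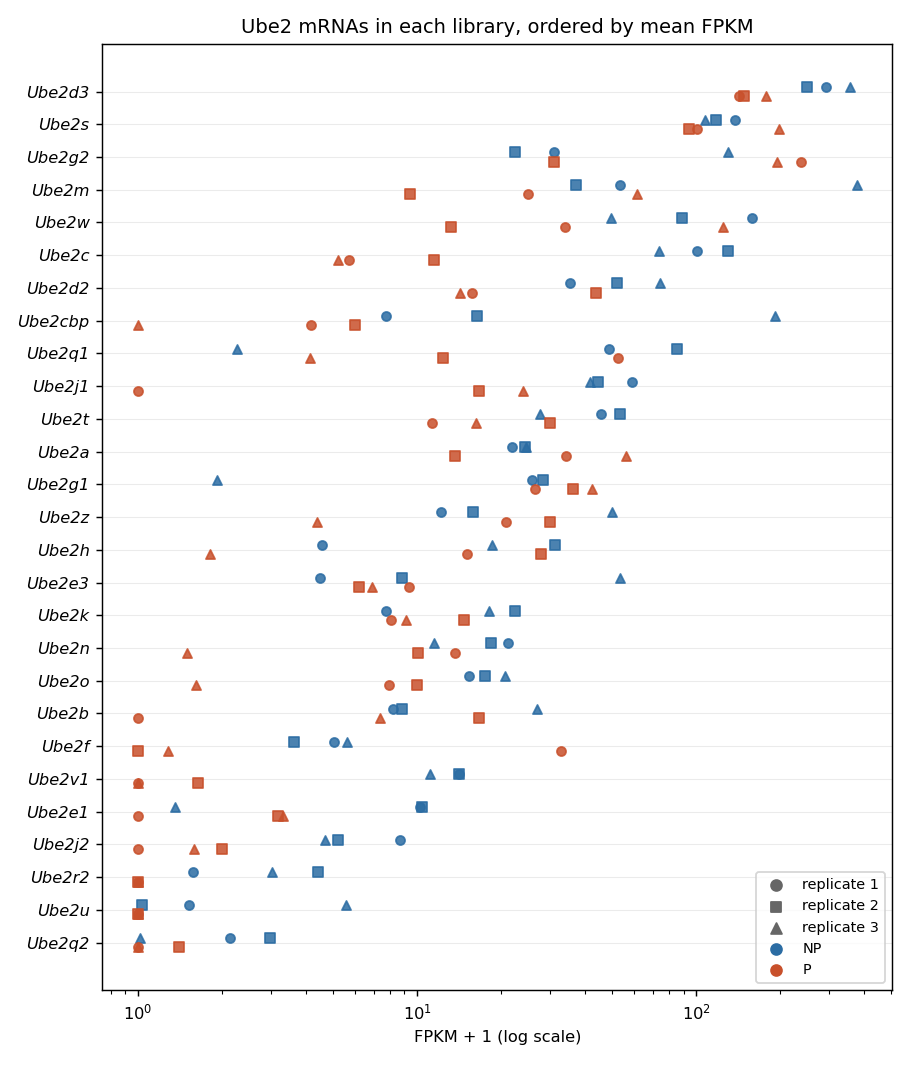
FPKM + 1 on a log scale for 27 of the 28 members tested, ordered by mean FPKM, with NP libraries in blue, P libraries in orange and marker shapes for the replicate number. Ube2c shows 3 P points, at 4.22 to 10.4 FPKM, far left of 3 NP points at 72.3 to 129 FPKM, whereas the points of most other members are mixed or adjacent.

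P was compared with NP by limma on log2(FPKM + 1) over all genes, with Benjamini-Hochberg adjustment and a threshold of 0.1. Ube2c was the 1 member called lower in P of 28 tested (3.57%), where 1.8% of all genes tested were called lower, and 0 members were called higher, against 0.0189% of all genes. By the methods each sample gave 1 NP and 1 P pool, so the libraries come in pairs, but no source says that equal replicate numbers mark the pairs. With the replicate number as a block, 2 members were called lower, Ube2c and Ube2v1, the latter among those that passed the filter through NP alone, where 6.27% of all genes were called lower. At an unadjusted p under 0.05 there were 4 members (Ube2c, Ube2v1, Ube2cbp and Ube2j1, all lower in P), against 15.8% of all genes. The log2 ratio of P over NP was below 0 in 24 of 28 members (85.7%) and in 80.2% of all genes. Its median was -1.21 over members, with quartiles of -1.63 and -0.60, and -1.03 over all genes, with quartiles of -1.83 and -0.22, and 16 members lay below and 12 above the median of all genes. Rescaling by the median of ratios moved these medians to -0.34 and -0.43, and quantile normalization to -0.095 and 0.0027, so ratios are best read against the median of all genes. In 10 members (35.7%) all 3 P libraries were below all 3 NP libraries, against 23.2% of all genes, and in 0 members all P libraries were above, against 0.633% of all genes. Among these 10 were Ube2v1, Ube2j2, Ube2r2 and Ube2u, which passed the filter through NP alone and so had to have a lower mean in P. The share of 35.7% is therefore not read as a trait of the members.

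**Figure D3:**
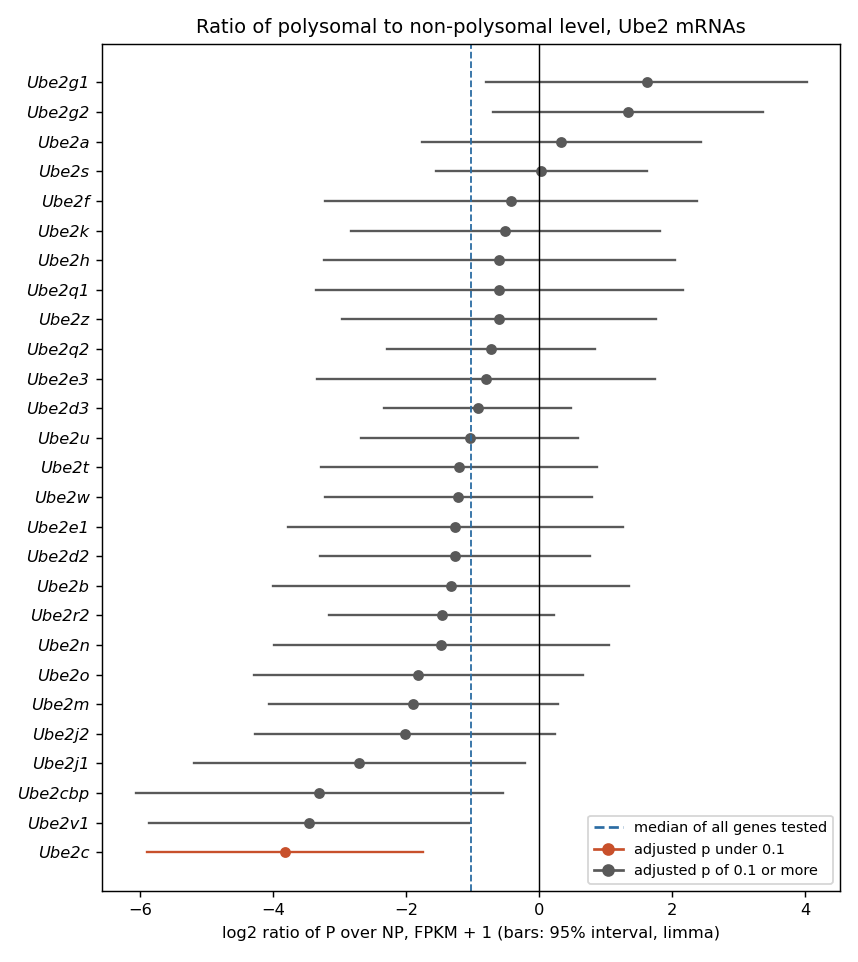
Log2 ratio of P over NP for 27 of the 28 members tested, as points with the 95% interval of the limma fit, the dashed line giving the median of all genes tested (-1.03) and the solid line a ratio of 0. Ube2c, at -3.82, is the 1 member called without the replicate block, and most intervals of the others span both lines.

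The APC/C partners are given in turn and then as a ratio. Ube2c was at 99.7, 129 and 72.3 FPKM in the NP libraries and at 4.70, 10.4 and 4.22 FPKM in the P libraries. Every P library was thus far below every NP library, and the NP mean was 100.5 FPKM ± 28.5 (SD, n = 3) against 6.45 FPKM ± 3.47 in P (SD, n = 3), 15.6 times less. Its log2 ratio was -3.82 (SE 1.0, adjusted p = 0.0706, limma), or -2.79 relative to the median of all genes. Whole reads could be recovered for Ube2c and came to 321, 6084 and 2280 in NP and 2, 31 and 17 in P, so the level in P replicate 1 rests on 2 reads. The direction held under every alternative run, with ratios from -4.18 to -2.73, but the call at a threshold of 0.1 was kept in only 6 of 14 refits, and it was lost at a threshold of 0.05 and without any 1 of the NP libraries (adjusted p = 0.395, 0.417 and 0.165 without NP replicates 1, 2 and 3, limma). Part of the Ube2c exons, 22.8% of their bases, overlaps Tnnc2 on the other strand, a muscle gene that was at 0 in 5 libraries and at 0.898 FPKM in NP replicate 2.

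Ube2s was at 137, 117 and 107 FPKM in the NP libraries and at 99.6, 92.9 and 197 FPKM in the P libraries. Its groups overlapped, and the log2 ratio was 0.03 (SE 0.77, 95% interval -1.56 to 1.62, adjusted p = 0.985, limma), which is 1.06 above the median of all genes. The sign of this ratio turned without NP replicate 3 (-0.05) or P replicate 3 (-0.31). Rpl28, a ribosomal protein gene that shares 3.56% of the Ube2s exon bases on the other strand, was at 87.3, 154 and 260 FPKM in NP and at 16.1, 10.8 and 13.1 FPKM in P, and its part in the Ube2s values was not tested.

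A ratio of partners within a library cancels its depth and scaling apart from the added 1 FPKM. Ube2s FPKM divided by Ube2c FPKM was 1.37, 0.905 and 1.48 in the NP libraries and 21.2, 8.90 and 46.7 in the P libraries. In FPKM the partners were thus near parity in NP, and Ube2s was in large excess in each of 3 P libraries. The exon length behind the Ube2s FPKM was not recovered, so parity in FPKM need not be parity in molecules. The change of the FPKM ratio between fractions does not depend on that length. On the log2(FPKM + 1) scale the ratio was 0.29 ± 0.38 in NP and 4.14 ± 1.10 in P (SD, n = 3 each), a difference of 3.86 (two-sided exact permutation test p = 0.1, the smallest that 3 against 3 libraries allow, and 0.3 after Benjamini-Hochberg adjustment over 3 pairs). This test was chosen after the values had been seen, and leaving out any library gave differences from 3.30 to 4.41. Of the APC/C genes that these enzymes serve, Cdc20, its activator at the onset of anaphase, was at 34.2, 36.0 and 34.8 FPKM in NP and at 39.2, 15.5 and 28.0 FPKM in P, and Fzr1, its activator in arrest and on exit from mitosis, was at 51.8, 36.2 and 31.4 FPKM in NP and at 6.80, 5.66 and 7.34 FPKM in P. Neither passed the test (adjusted p = 0.834 for Cdc20 and 0.282 for Fzr1, limma), and both were chosen after their values were seen.

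**Figure D4:**
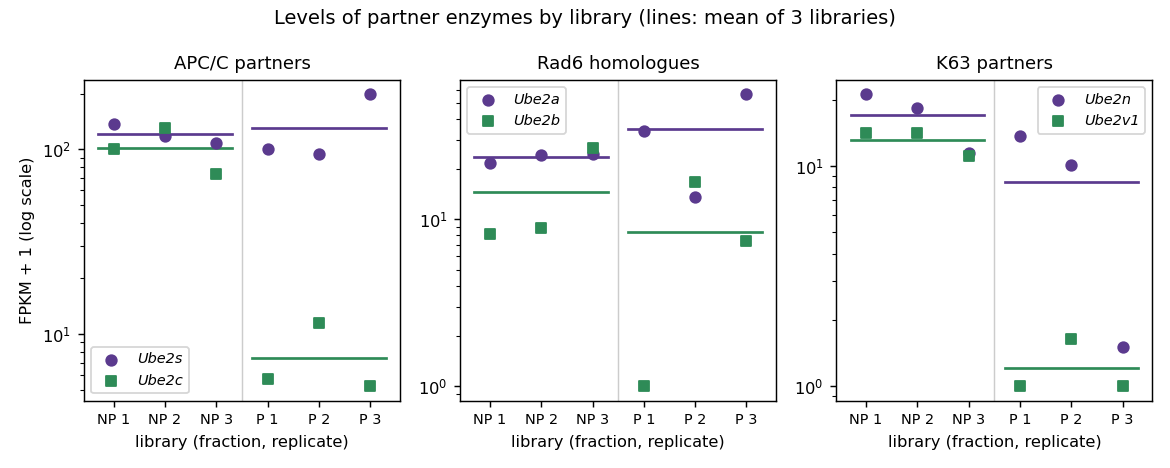
FPKM + 1 on a log scale in each library for 3 pairs of partner enzymes, with horizontal lines at the mean of the 3 libraries of a fraction. Ube2s and Ube2c lie together in NP and apart in P, where Ube2s is between 8.90 and 46.7 times Ube2c, while the other pairs separate in only some P libraries.

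Ube2n and Ube2v1 form the dimer that builds lysine 63 chains, which serve signalling and DNA damage tolerance rather than destruction. Ube2v1, the variant subunit, was at 13.1, 13.1 and 10.1 FPKM in the NP libraries and at 0, 0.644 and 0 FPKM in the P libraries. All P libraries were below all NP libraries, with recovered reads of 44, 645 and 334 in NP and of 0, 2 and 0 in P. The log2 ratio was -3.46 (SE 1.16), which did not pass the test without the replicate block (adjusted p = 0.162, limma) and passed it with the block (adjusted p = 0.0733, limma). Ube2v1 entered the test only through its NP level, its ratio went to -5.95 with a pseudocount of 0.1 and to -2.37 with quantile normalization, and a 0 in P replicate 1 still allows up to 6.73 FPKM. Ube2n, the catalytic subunit, was at 20.1, 17.4 and 10.5 FPKM in NP and at 12.7, 9.10 and 0.503 FPKM in P, with a log2 ratio of -1.48 (SE 1.22, adjusted p = 0.519, limma) that was -0.49 without P replicate 3. The groups of Ube2n overlapped because its P replicate 1 lay within the NP range. The within-library log2 ratio of Ube2n over Ube2v1 was 0.34 ± 0.27 in NP and 2.33 ± 1.61 in P (SD, n = 3 each; exact permutation p = 0.2). At 95% identity or more over at least 200 bases, Ube2v1 had 4 near-identical genes of other names and Ube2n had 5. Reads could have been split among these. Among those of Ube2v1, Gm20431 is not a separate copy but shares 61.5% of the Ube2v1 exon bases on the same strand. Gm20431 was at 15.0, 7.19 and 4.91 FPKM in NP and at 0, 0.370 and 9.0 FPKM in P. Gm11476, on the strand opposite to Ube2v1, was at 20.8, 23.7 and 23.5 FPKM in NP and at 0, 3.04 and 0 FPKM in P. Ube2v2, the other variant subunit, was at 0 in 4 libraries and never above 0.347 FPKM, which came to 18 recovered reads in NP replicate 3.

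Ube2a and Ube2b, the homologues of yeast Rad6, ubiquitinate histone H2B and PCNA and serve N-degron ligases. Ube2a was at 20.9, 23.4 and 23.6 FPKM in NP and at 33.1, 12.7 and 55.2 FPKM in P. Its NP libraries lay close together, and its P libraries lay on both sides of them, with a log2 ratio of 0.33 (SE 1.01, adjusted p = 0.882, limma). Ube2b was at 7.22, 7.85 and 25.8 FPKM in NP and at 0, 15.7 and 6.38 FPKM in P, with a log2 ratio of -1.33 (SE 1.29, adjusted p = 0.578, limma) that was -0.17 without P replicate 1. Recovered Ube2b reads in P were 0, 38 and 21, and the 0 of P replicate 1 allows up to 8.62 FPKM, above the values of NP replicates 1 and 2. The within-library log2 ratio of Ube2a over Ube2b was 0.92 ± 0.90 in NP and 2.58 ± 2.71 in P (SD, n = 3 each; exact permutation p = 0.5), a difference of 1.66 that was between 0.40 and 3.09 leaving out 1 library, and with 3 against 3 libraries this test could not have passed a threshold of 0.05.

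Ube2d3 was the most abundant member, at 291, 248 and 353 FPKM in NP and at 141, 147 and 177 FPKM in P. The fractions did not overlap and the replicates were close, but the log2 ratio of -0.93 (SE 0.68, adjusted p = 0.483, limma) was 0.10 above the median of all genes, and its sign turned with either rescaling (0.067 and 0.094). Ube2d2, which works with many of the same RING ligases, was at 34.2, 51.0 and 73.1 FPKM in NP and at 14.8, 42.7 and 13.3 FPKM in P (log2 ratio -1.26, SE 0.98). Ube2d1, whose coding sequence is 77.3% identical to that of Ube2d3, was at 0 in 5 libraries and at 0.0759 FPKM in NP replicate 2. For Ube2d1, 3 reads would give 0.0380 FPKM in the deepest library and 4.19 FPKM in P replicate 1. Ube2d3 and Ube2d2 have 3 near-identical genes of other names each, so reads could have been split among them. Of those of Ube2d2, Gm9762 was listed at up to 9.28 FPKM, and AC141471.2 shares 2.67% of the Ube2d2 exon bases on the same strand. Of the related Ube2e genes, Ube2e1 ranged from 0.351 to 9.41 FPKM in NP and from 0 to 2.32 in P, Ube2e3 from 3.50 to 52.2 in NP and from 5.19 to 8.34 in P, and Ube2e2 did not pass the filter.

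Ube2j1, Ube2j2 and Ube2g2 serve endoplasmic reticulum-associated degradation, which removes misfolded proteins of the secretory pathway, and none of them passed the test. Ube2j1, anchored in the membrane of the endoplasmic reticulum, was at 57.9, 43.6 and 40.8 FPKM in NP and at 0, 15.6 and 22.9 FPKM in P. Every P library was below every NP library, with a log2 ratio of -2.70 (SE 1.20, adjusted p = 0.285, limma) that went to -1.26 without P replicate 1. Its relative Ube2j2 was at 7.70, 4.19 and 3.68 FPKM in NP and at 0, 0.993 and 0.586 FPKM in P, again without overlap (log2 ratio -2.02, SE 1.09, adjusted p = 0.364, limma). Ube2g2, a soluble E2 of the same pathway, was at 29.9, 21.3 and 129 FPKM in NP and at 236, 29.9 and 194 FPKM in P. The highest Ube2g2 values were those of P replicates 1 and 3, and P replicate 2 lay within the NP range, so that a log2 ratio of 1.33 (SE 0.98, adjusted p = 0.483, limma) did not pass the test, and it was between 0.79 and 2.26 leaving out 1 library.

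Among E2s that build lysine 48 chains, which mark proteins for the proteasome, Ube2g1 had the highest log2 ratio of the members in the fit to all 6 libraries, although by mean FPKM the P over NP ratio was larger for Ube2f (2.85) and Ube2g2 (2.55) than for Ube2g1 (1.92). Ube2g1, given here after its values were seen, was at 24.9, 27.2 and 0.918 FPKM in NP and at 25.3, 35.0 and 41.2 FPKM in P, and the log2 ratio of 1.61 (SE 1.16, adjusted p = 0.475, limma) fell to 0.34 without NP replicate 3. The 2 other NP libraries were at levels like those of P. Ube2k ranged from 6.72 to 21.4 FPKM in NP and from 7.08 to 13.7 in P, with overlap. Ube2r2, a partner of cullin ligases, was at 0.579, 3.42 and 2.03 FPKM in NP and at 0 in all P libraries, where 3 reads would give 4.37, 0.628 and 0.463 FPKM. P replicates 2 and 3 were deep enough to show the NP mean of 2.01 FPKM, and P replicate 1 was not.

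Of the E2s of ubiquitin-like modifiers, Ube2m, Ube2f and Ube2z had log2 ratios below 0, of which those of Ube2f and Ube2z turned above 0 with either rescaling, and none of these passed the test. Ube2m, which loads NEDD8 onto most cullins, was at 52.3, 36.1 and 374 FPKM in NP and at 24.0, 8.43 and 60.4 FPKM in P. NP replicate 3 alone carried most of the Ube2m signal, and the log2 ratio was -1.89 (SE 1.05, adjusted p = 0.380, limma) and -0.87 without that library. Ube2f, the other NEDD8 E2, was at 4.02, 2.61 and 4.58 FPKM in NP and at 31.7, 0 and 0.279 FPKM in P, so that 99.1% of its P signal lay in the shallowest library. Its mean FPKM was higher in P (10.7) than in NP (3.74), opposite to its log2 ratio of -0.42. Gm5434, a near-identical copy of Ube2f, was listed at 149, 82.0 and 13.2 FPKM in NP and at 75.7, 33.8 and 47.6 FPKM in P, above Ube2f in every library, and reads of the pair cannot be told apart with certainty. Ube2z, which carries FAT10 as well as ubiquitin, ranged from 11.1 to 49.1 FPKM in NP and from 3.39 to 28.9 in P. Ube2l6, the E2 for ISG15, was at 0 in all libraries, as was Isg15 itself.

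Ube2t, the E2 of the Fanconi anaemia pathway of crosslink repair, was at 44.4, 52.5 and 26.4 FPKM in NP and at 10.3, 29.0 and 15.2 FPKM in P, with a log2 ratio of -1.20 (SE 1.0, adjusted p = 0.521, limma). Ube2w, which ubiquitinates the N-termini of proteins, was at 158, 88.2 and 48.4 FPKM in NP and at 32.7, 12.2 and 123 FPKM in P. Only P replicate 3 of Ube2w reached into the NP range, and its log2 ratio of -1.22 was between -2.07 and -0.45 leaving out 1 library. Ube2o, a large enzyme that acts as both E2 and E3, was at 14.4, 16.5 and 19.6 FPKM in NP and at 6.93, 8.95 and 0.610 FPKM in P. Its groups did not overlap (log2 ratio -1.82, SE 1.19, adjusted p = 0.445, limma), and the ratio was -0.99 without P replicate 3. Ube2q1 was at 47.7, 84.3 and 1.26 FPKM in NP and at 51.5, 11.4 and 3.14 FPKM in P, a range within each fraction wider than the difference between their means. Ube2h, the E2 of the CTLH ligase, ranged from 3.55 to 30.3 FPKM in NP and from 0.810 to 26.8 in P. Ube2cbp was at 6.70, 15.4 and 191 FPKM in NP and at 3.16, 5.00 and 0 FPKM in P, without overlap (log2 ratio -3.31, SE 1.33, adjusted p = 0.238, limma), and its ratio was -1.94 without NP replicate 3. Ube2u was at 0.526, 0.0360 and 4.56 FPKM in NP, which came to 1, 1 and 85 recovered reads, and at 0 in all P libraries, so that its lack of overlap rests on 1 read each in NP replicates 1 and 2 and its place among the genes tested on NP replicate 3. Ube2q2, the lowest of the members tested, was at most 1.96 FPKM in NP and 0.407 FPKM in P.

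Of the 8 members that did not pass the filter, Ube2l6, Ube2nl and Ube2dnl were at 0 in all libraries, and Ube2d1, Ube2v2, Ube2l3, Ube2e2 and Ube2ql1 had 1 or more values above 0. Ube2l3, the E2 of HECT and RBR ligases, reached 0.878 FPKM in NP and 2.50 FPKM in P. It has 8 near-identical copies in the genome, the most of any member, so a low listed value does not bound its mRNA. Of these copies, Gm10015 was listed at 0 in every library. Gm10145 was listed at up to 3.77 FPKM (P replicate 2) and Gm10705 at up to 1.77 FPKM (NP replicate 3). Ube2c and Ube2s had 0 such copies.

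The 3′ ends were searched for letters that bear on translation during maturation. The cytoplasmic polyadenylation element, searched as TTTTAT or TTTTAAT on the transcript strand in the last 150 bases of the 3′ UTR, was present in 4 of 30 members with a long enough 3′ UTR (13.3%), against 23.5% of 17103 coding genes. These were Ube2t, Ube2j2, Ube2q2 and Ube2g2, and the letters were not in the windows of Ube2c, Ube2d3 and Ube2m. The 3′ UTR of Ube2s, 141 bases long, was too short for the window.

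The other genes of the ubiquitin pathway are given from lists of E1 enzymes, E2 enzymes with other names, modifiers and E3 partners. None of the 7 E1, 7 other E2, 12 modifier or 27 E3 genes tested passed the threshold in either direction. Over all genes tested, 1.8% were called lower and 0.0189% higher, so lists of this size would hold few calls at those shares. Their median log2 ratios were -0.93, -0.91, -0.76 and -0.77, all nearer to 0 than the member median of -1.21 and than the -1.03 of all genes. Uba1, the main E1 for ubiquitin, was at 256, 289 and 227 FPKM in NP and at 104, 94.0 and 51.6 FPKM in P, without overlap (log2 ratio -1.67, SE 0.74, adjusted p = 0.284, limma). Cdc34, an E2 of SCF ligases named outside the Ube2 series, was more abundant than any Ube2 member in NP, at 645, 936 and 1626 FPKM, and was at 547, 20.1 and 272 FPKM in P. Its groups did not overlap, and its log2 ratio of -2.76 (SE 0.87, adjusted p = 0.137, limma) was past the threshold with the replicate block (adjusted p = 0.0425, limma), without P replicate 1 (-3.71, adjusted p = 0.0220, limma) or without P replicate 3 (-3.21, adjusted p = 0.0810, limma). Without P replicate 2, the library at 20.1 FPKM, it was -1.36 (adjusted p = 0.314, limma). Ubb, a polyubiquitin gene, had a log2 ratio of -0.77 (SE 0.73), Sae1, of the SUMO E1, had -0.05 (SE 1.52), Birc6, a giant E2 and E3 in 1 protein, had 0.95 (SE 1.11), and Maea, of the CTLH ligase, had -1.01 (SE 0.67).

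**Figure D5:**
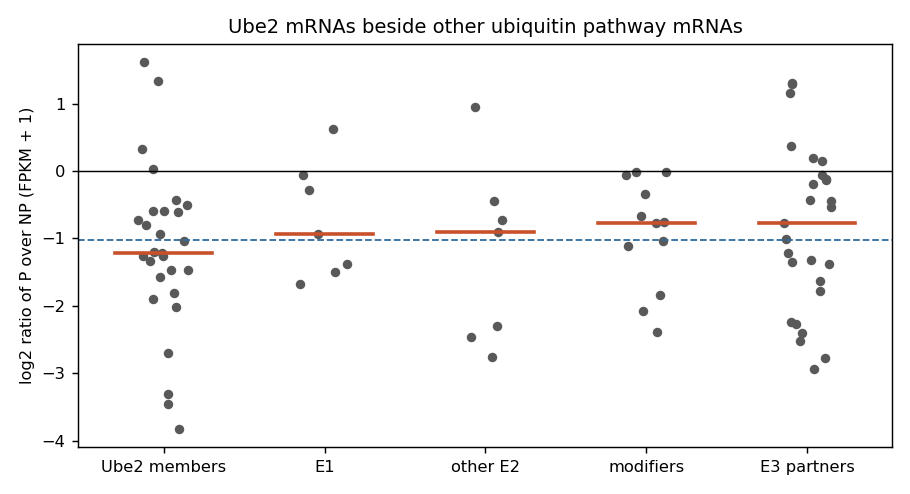
Log2 ratio of P over NP, on the FPKM + 1 scale, for each gene tested among Ube2 members and the 4 pathway lists, with an orange line at the list median and a dashed line at the median of all genes (-1.03). The list medians lie between -1.21 and -0.76, and the lowest point of the plot is Ube2c at -3.82.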

How the data were processed

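Libraries of NP and P fractions of AF oocytes, 3 of each, were trimmed with Trim Galore 0.4.1 and aligned to GRCm38 with HISAT2 2.0.5 per the submitters' processing notes, and FastQC 0.11.5 is also named there. The authors deposited FPKM per gene, made with SeqMonk per their methods. Which annotation release and strand setting were used is not stated. FPKM keeps no counts. Depth was recovered from steps between low values and GENCODE M21 exon lengths, and 84.4% to 90.2% of low values were whole within 0.02 reads. What a step counts is not stated, and whole reads were recovered for 7 members in every library.

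Of 25965 rows, 58 symbols were duplicated and the row with the highest mean was kept. All 36 members matched GENCODE. Genes with a mean FPKM above 1 in NP or P were tested with limma 3.58.1 (R 4.3.3) on values transformed as log2(FPKM + 1), letting the prior variance follow the mean level (trend), two-sided, with Benjamini-Hochberg adjustment and a threshold of 0.1. Fold changes on this scale understate changes of low genes. In a simulation of P against NP with 4232 genes, 200 of them different by 2 (log2), and 1 noise SD for all genes, 4 of the 200 were found at an SD of 1.22, the median residual SD here, and 200 at an SD of 0.3. The real fit differs in its gene number and in its trended variance. Partner ratios were compared with exact permutation tests in SciPy 1.17.1. Copies were sought with blastn 2.17.0.

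Members named with every value were those called, the 12 most abundant, those whose fractions did not overlap and those of set roles, and the pathway genes named were those called and the 2 most abundant of each list. Values of 3 genes that this rule takes in are not reported here. Further genes are said to be chosen after their values were seen, or are neighbours and copies of members. Members and lists were chosen with earlier results of these data known. Alternatives were a pseudocount of 0.1, other filters, rescaling, quantile normalization, no trend, a replicate block, summed duplicates, a threshold of 0.05 and leaving out each library. Alternatives for the partner ratios were chosen after seeing the data.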

Additional observations from a re-analysis of the deposited data

How the results depend on the processing

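The calls depended on the processing. The number of genes past the threshold was 192 and went to 69 with a pseudocount of 0.1, to 15 without the trend, to 3 (2 higher, 1 lower) with median-of-ratios rescaling, to 4 (2 higher, 2 lower) with quantile normalization, to 65 at a threshold of 0.05 and to 0 without the filter (limma, with 1759 genes, 3 of them members, at an unadjusted p under 0.05). Leaving out 1 library gave 1 to 331 genes, with 4, 12 and 1 without NP replicates 1, 2 and 3 and 331 without P replicate 3, and 240 without P replicate 1, the shallowest. Among members, Ube2c was lost and 0 were called with each of the same 6 settings and without any 1 NP library, so that leaving out gave 0 to 1. Its adjusted p ranged from 0.0331 to 0.626 (limma) over 14 refits. The member median of -1.21 went to -0.34 with median-of-ratios rescaling, -0.095 with quantile normalization, -0.93 without the filter and -1.74 with a pseudocount of 0.1, and to between -1.30 and -0.99 leaving out 1 library. The median of all genes went to -0.43, 0.0027, -0.59 and -1.73 in the same order, to -1.30 with a mean above 5 FPKM, and to between -1.34 and -0.93 leaving out 1 library. The cause was not tested.

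Over 33 named genes and 14 alternatives, 36 values changed sign, none of a gene called. With median-of-ratios and quantile scaling, in this order, the log2 ratios were 0.067 and 0.094 for Ube2d3, 0.017 and 0.57 for Ube2e3, 0.069 and 0.96 for Ube2f, 0.18 and 0.88 for Ube2h, 0.39 and 0.81 for Ube2k, 0.34 and 0.38 for Ube2q1, 0.29 and 0.87 for Ube2z, 0.86 and 0.70 for Sae1, and 0.23 and 0.24 for Ubb, and with quantile scaling alone 0.23 for Ube2b and 0.18 for Ube2q2. Leaving out 1 library gave -0.13 to 0.89 for Ube2a, -1.56 to 0.22 for Ube2e3, -2.04 to 0.47 for Ube2f, -1.40 to 0.57 for Ube2h, -2.21 to 0.41 for Ube2q1, -0.31 to 0.23 for Ube2s, -1.15 to 0.23 for Ube2z and -1.74 to 1.42 for Sae1. For the partner ratios, a pseudocount of 0.1 moved the difference of Ube2n over Ube2v1 from 1.99 to 4.05 and that of Ube2a over Ube2b from 1.66 to 2.74, and leaving out 1 library gave 3.30 to 4.41 for Ube2s over Ube2c, 0.40 to 3.09 for Ube2a over Ube2b and 1.26 to 2.86 for Ube2n over Ube2v1.

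The methods say that each sample gave both fractions, but no source used says that equal replicate numbers mark 1 sample. After subtracting each group's mean, NP and P libraries with equal numbers had correlations over genes of 0.063, 0.099 and 0.116, and those with unequal numbers had -0.089 to 0.021, so each library correlated best with its own number. Subtracting the means ties these values to each other, and whether the numbers mark the pairs was not tested. With a replicate block, 668 genes were called (5 higher, 663 lower), among them all 192 of the fit without it, and 2 members, Ube2c and Ube2v1 (adjusted p = 0.0733 for Ube2v1, limma), and Cdc34 was past the threshold as well (adjusted p = 0.0425, limma).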
